A study of Mus musculus with 9 samples.

Results

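The genes of transforming growth factor beta (TGF-β) signaling covered here are its 3 ligands (Tgfb1, Tgfb2 and Tgfb3), its 3 receptors (Tgfbr1, Tgfbr2 and Tgfbr3), the signal transducer Smad3 and the 2 feedback genes Smad7 and Skil. They were chosen by gene symbol, 9 of the 15384 protein-coding genes in the count table, and all 9 passed the filter on low counts. Messenger RNA was measured by RNA-Seq in MyC-CaP, a mouse prostate cancer line from a tumor of an animal with a MYC transgene driven in the prostate, so all samples come from 1 line that carries this transgene. The cells were starved without serum and calcium, then given 100 ng/mL recombinant mouse asporin (ASPN), a small proteoglycan secreted by fibroblasts of the tumor stroma.

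The groups compared were time 0, 12 hours and 24 hours, with 3 libraries in each, labeled as biological replicates. The labels name ASPN for every library, time 0 included, and time 0 was taken as the start of treatment. No library of cells kept for 12 or 24 hours without ASPN was analysed here, so the effect of ASPN and the effect of hours in culture cannot be told apart in any comparison. The wells were plated in triplicate, and p-values measure the spread among these wells. A lower level in such bulk RNA can come from fewer cells with a transcript or from less of it per cell, and these cannot be told apart.

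TGF-β ligands are secreted in a latent form, held by their propeptide, and are released by integrins and proteases. A free ligand is bound by TGFBR2, which recruits and phosphorylates TGFBR1, and this kinase phosphorylates SMAD2 and SMAD3, which enter the nucleus with SMAD4. TGFBR3, or betaglycan, is a coreceptor that presents ligand, above all TGF-β2, to TGFBR2. SMAD7 blocks the active receptor, SKIL (SnoN) is a corepressor of SMAD complexes, and the genes of both are induced by the pathway. In prostate epithelium TGF-β is known as a restraint on growth, and in advanced tumors as a driver of invasion and stromal change.

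The libraries held 41881191 to 52993821 counts. At 24 hours the 10 most abundant genes took 9.81% to 10.2% of the counts, against 7.51% to 8.02% in the other 6 libraries. The share of counts from mitochondrially encoded genes lay between 2.60% and 2.71% at time 0, between 2.63% and 2.85% at 12 hours, and between 0.113% and 0.203% at 24 hours. Of 7 luminal epithelial markers, 3 (Krt8, Krt19 and Cldn4) were above 1 CPM (counts scaled to library size) in every library, whereas the defining epithelial markers Epcam and Cldn7 had at most 3 counts in any library, which does not bear out the labeled epithelial-like type at these genes. The prostate genes Hoxb13 and Fkbp5 were above 1 CPM in every library, and Tmprss2 had at most 3 counts. Fibroblast markers summed to between 12.8 and 14.0 CPM at time 0, between 12.2 and 12.5 at 12 hours and between 9.02 and 10.2 at 24 hours, with Pdgfra the only 1 of the 3 measured above 1 CPM. Basal, endothelial and leukocyte markers each summed to less than 1 CPM. The basal sum lay between 0.0858 and 0.165 CPM at time 0, 0.215 and 0.372 at 12 hours, and 0.539 and 0.904 at 24 hours. Its gene Krt14 had a mean of 0.0402 CPM at time 0 and 0.481 at 24 hours. The luminal epithelial sum lay between 108 and 137 CPM at time 0, 127 and 133 at 12 hours, and 166 and 193 at 24 hours, and the part of these shifts in the results was not tested. Aspn itself had 0 to 9 counts.

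Promoter sequences are shown for Tgfb1, Tgfb2 and Tgfbr2, to set their letters side by side. Tgfb1 was higher at 24 hours than at time 0. Tgfb2 and Tgfbr2 were lower, each by less than 1.5-fold. RefSeq sequence (GRCm38.p6) was used for 5 of the 9 members (Tgfb1, Tgfb2, Tgfbr1, Tgfbr2 and Smad3). No sequence was matched for Tgfb3, Tgfbr3 and Skil. Smad7 was left out of the search, so nothing is said here of its motifs. The 250 bases before the start are given 5′ to 3′ on the strand of the gene. Capitals mark letters found by search on both strands: the SMAD box CAGAC, the AP-1 site TGANTCA, the E-box CACGTG, the TATA box TATAAA and the GC box GGGCGG, with no overlaps among the matches shown. The windows are chr7:25686752-25687001 on the plus strand for Tgfb1, chr1:186705990-186706239 on the minus strand for Tgfb2 and chr9:116175364-116175613 on the minus strand for Tgfbr2.
Tgfb1: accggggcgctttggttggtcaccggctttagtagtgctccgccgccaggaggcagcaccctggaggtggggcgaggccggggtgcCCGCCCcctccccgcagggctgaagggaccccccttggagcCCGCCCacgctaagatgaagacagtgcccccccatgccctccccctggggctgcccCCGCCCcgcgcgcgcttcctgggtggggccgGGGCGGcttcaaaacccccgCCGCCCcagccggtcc
Tgfb2: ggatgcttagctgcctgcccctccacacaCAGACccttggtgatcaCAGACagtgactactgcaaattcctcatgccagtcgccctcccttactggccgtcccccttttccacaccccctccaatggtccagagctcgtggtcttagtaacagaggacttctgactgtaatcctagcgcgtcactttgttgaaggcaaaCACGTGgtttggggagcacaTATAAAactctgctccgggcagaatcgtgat
Tgfbr2: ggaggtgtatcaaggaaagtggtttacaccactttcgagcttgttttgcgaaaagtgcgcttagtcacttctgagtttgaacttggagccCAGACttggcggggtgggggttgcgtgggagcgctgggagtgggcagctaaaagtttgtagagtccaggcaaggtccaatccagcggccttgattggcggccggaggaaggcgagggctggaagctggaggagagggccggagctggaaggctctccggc
Tgfb1 held 5 GC boxes and none of the other motifs. Tgfb2 held 2 SMAD boxes, 1 E-box and 1 TATA box, the last from 31 to 26 bases before the start. Tgfbr2 held 1 SMAD box. Tgfbr1, which was also lower at 24 hours, held 2 GC boxes and no SMAD box, as did Smad3. Among 32817 mouse promoter windows of the same length, 42.2% held a SMAD box, 6.75% an AP-1 site, 6.02% the E-box, 12.4% the TATA box and 32.7% a GC box. These matches describe letters only.

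At 12 hours 4 members were higher than at time 0 and 1 was lower at an adjusted p of 0.05 or less, and none of the 9 passed the full call, which also asked for a change of 1.5-fold. The quasi-likelihood test of edgeR was used, adjusted by the Benjamini-Hochberg method over all 11410 genes tested, called the edgeR adjusted p in what follows. The genes past the adjusted p were Tgfb1, Smad3, Smad7 and Skil on the higher side and Tgfb3 on the lower side. Over all genes tested 10.3% passed the adjusted p alone, 6.85% higher and 3.47% lower, and 1.60% were called. Of the 9 members, 7 had an unadjusted p under 0.05, as had 21.4% of all genes, and DESeq2, limma-voom and edgeR's test against a 1.5-fold threshold also called 0. The median log2 fold change was 0.15 for the members and -0.00487 for all genes. Levels of 6 members did not overlap between the 2 times, as was so for 27.0% of all genes.

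At 24 hours against time 0, 4 of the 9 members were called: Tgfb1 and Smad7 were higher, and Tgfb3 and Tgfbr3 were lower. Over all genes 28.8% were called, 12.0% higher and 16.8% lower. The adjusted p alone was passed by 8 members, 3 of them higher (Tgfb1, Smad7 and Skil) and 5 lower (Tgfb2, Tgfb3 and the receptors), and Smad3 did not pass it. Of all genes 70.9% passed it, 34.4% higher and 36.5% lower. The same 8 members did not overlap between the times, as was so for 73.9% of all genes. The median log2 fold change of the members was -0.31, against -0.02 for all genes. Scaling by total counts in place of TMM factors moved the median of all genes to -0.24 and the share of called genes that were higher from 41.7% to 18.8%. With that scaling Tgfb1 lost its call, Tgfb2 and Tgfbr2 were called lower, and Tgfb3, Tgfbr3 and Smad7 kept theirs.

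**Figure D1:**
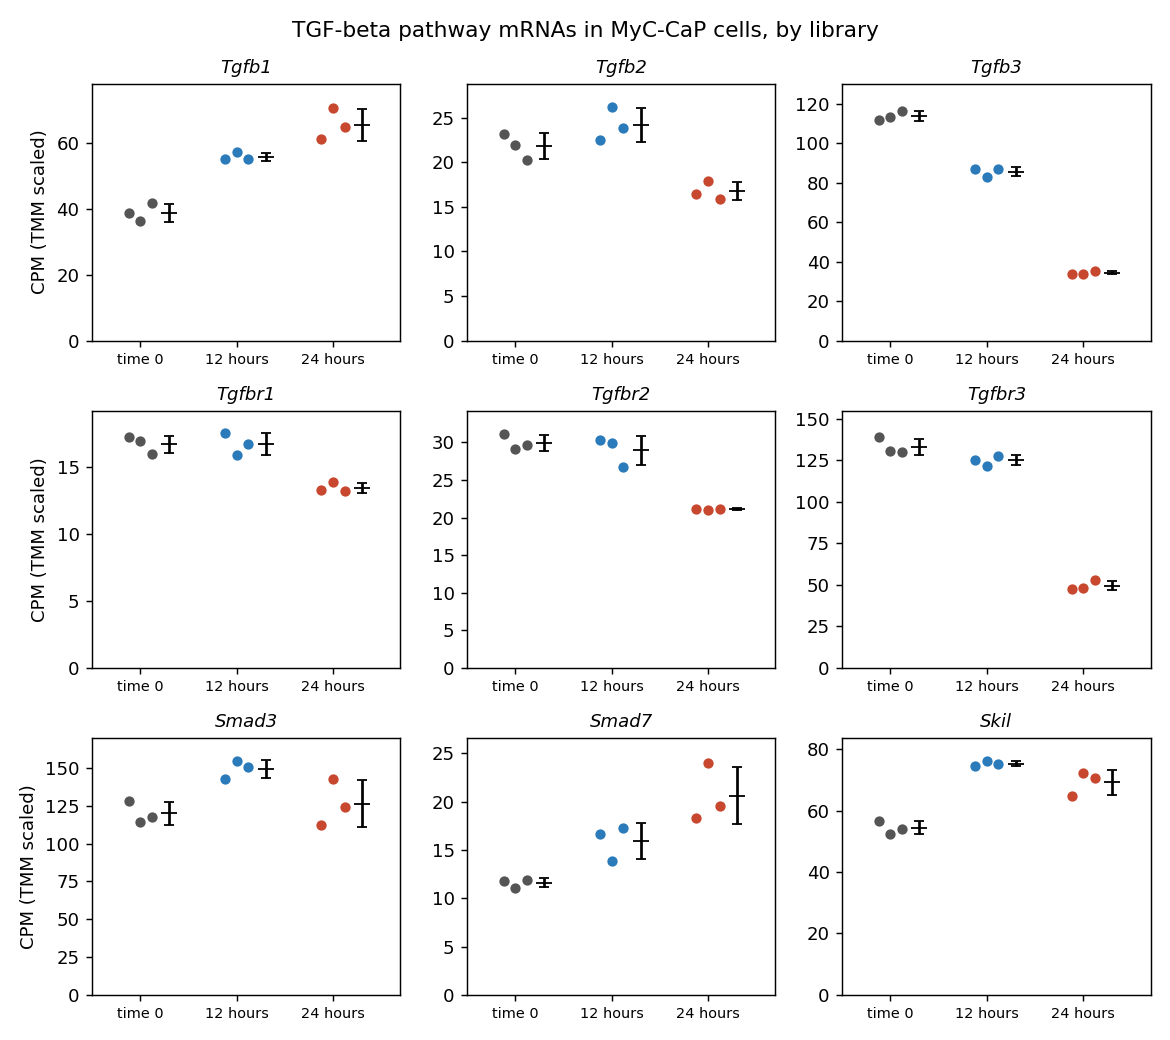
Level of each of the 9 genes in CPM (TMM-scaled, linear axis from 0) by time, with a point per library, and the mean and SD of 3 libraries. Tgfb3 fell from a mean of 114 CPM at time 0 to 34.3 at 24 hours and Tgfbr3 from 133 to 49.5, while Tgfb1 rose from 39.0 to 65.7.

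Tgfb1 encodes the most widely expressed of the 3 ligands. Its mRNA (ENSMUSG00000002603.15, chr7:25687002-25705077, plus strand, GRCm38) stood at 38.8, 36.3 and 41.8 CPM at time 0, 55.2, 57.3 and 55.1 at 12 hours, and 61.3, 70.7 and 65.0 at 24 hours. The 3 groups did not overlap and the level was higher at each later time. The log2 fold change was 0.52 at 12 hours (SE 0.048, edgeR adjusted p = 6.99e-07) and 0.76 at 24 hours (SE 0.064, edgeR adjusted p = 1.82e-07), a 1.69-fold rise. From 12 to 24 hours it rose by 0.26 (SE 0.051, edgeR adjusted p = 0.000542). With total counts as the scale the 24-hour change was 0.54, under 1.5-fold, and that from 12 to 24 hours was 0.03, whereas a length and GC correction gave 0.40 for the latter.

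Tgfb2 encodes the ligand that depends most on betaglycan for binding. Its levels (ENSMUSG00000039239.14, chr1:186622792-186705989, minus strand) were 23.2, 21.9 and 20.2 CPM at time 0, 22.4, 26.2 and 23.8 at 12 hours and 16.4, 17.9 and 15.9 at 24 hours. Time 0 and 12 hours overlapped (log2 fold change 0.15, SE 0.066, edgeR adjusted p = 0.178), and all 3 libraries of 24 hours were below the other 6. The 24-hour change was -0.37 against time 0 (SE 0.074, edgeR adjusted p = 0.000483), a fall short of 1.5-fold, and -0.51 against 12 hours (SE 0.071, edgeR adjusted p = 2.48e-05). With total counts as the scale these were -0.60 and -0.73, and both were called. An opposite-strand gene, Gm29491, shares 2.1% of the exonic bases of Tgfb2, and without a stated strand setting its reads cannot be told apart from those of Tgfb2.

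Tgfb3, the third ligand gene, showed the largest fall among the members against time 0. It was measured (ENSMUSG00000021253.7, chr12:86056745-86079041, minus strand) at 112, 113 and 116 CPM at time 0, 87.0, 82.7 and 86.8 at 12 hours, and 33.9, 33.8 and 35.1 at 24 hours. Each time point lay below the one before it without overlap. The log2 fold change was -0.41 at 12 hours (SE 0.035, edgeR adjusted p = 2.89e-07) and -1.72 at 24 hours (SE 0.044, edgeR adjusted p = 5.38e-12), or 3.30-fold lower. Most of the fall lay between 12 and 24 hours, where the change was -1.30 (SE 0.043, edgeR adjusted p = 6.48e-11). Across all alternatives without a library left out, the 24-hour change against time 0 was between -1.95 and -1.64. Exons of Tgfb3 share 7.6% and 4.8% of their bases with the opposite-strand genes Gm48008 and Gm37804, and a strand setting for the counting is not given in the sources used here, so reads of these genes cannot be told apart from those of Tgfb3.

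The leading ligand transcript was Tgfb3 at time 0 and Tgfb1 at 24 hours. Levels between genes were compared as CPM per kilobase of exon. Tgfb3 made up 74.5% ± 0.705 of the summed ligand level at time 0, 62.4% ± 1.51 at 12 hours and 39.0% ± 1.79 at 24 hours (SD, n = 3). Tgfb1 made up 17.1% ± 0.866, 27.3% ± 0.716 and 49.96% ± 1.62 (SD, n = 3) at the same times. The ratio of Tgfb1 to Tgfb3 per length lay between 0.216 and 0.241 at time 0, between 0.426 and 0.465 at 12 hours, and between 1.21 and 1.40 at 24 hours, so Tgfb1 was above Tgfb3 in all 3 libraries of 24 hours and below it in the other 6. With the longest transcript as the length, the share of Tgfb1 was 28.55% at time 0, 41.99% at 12 hours and 65.52% at 24 hours. Tgfb1 also had a larger mean share than Tgfb3 at 24 hours in that setting and without division by length, and a smaller share at the other times. The summed ligand level was 45.1 ± 0.945, 40.5 ± 0.193 and 26.04 ± 1.05 CPM per kilobase (SD, n = 3) in time order.

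Tgfbr1 encodes the type I receptor, the kinase that phosphorylates SMAD2 and SMAD3. It was at 17.2, 17.0 and 16.0 CPM at time 0, 17.6, 15.9 and 16.8 at 12 hours and 13.3, 13.9 and 13.2 at 24 hours (ENSMUSG00000007613.15, chr4:47353222-47414931, plus strand). The 12-hour libraries overlapped those of time 0, with a log2 fold change of 0.01 (SE 0.066, edgeR adjusted p = 0.976) that turned negative under other scalings. All 24-hour libraries were below the other 6, with a change of -0.31 against time 0 (SE 0.072, edgeR adjusted p = 0.00184), or 1.24-fold lower, and -0.29 against 12 hours (SE 0.068, edgeR adjusted p = 0.00168). With total counts as the scale these were -0.53 and -0.51, also short of the call.

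Tgfbr2 encodes the type II receptor that binds ligand first. Its levels were 31.2, 29.1 and 29.7 CPM at time 0, 30.3, 29.9 and 26.8 at 12 hours and 21.2, 21.0 and 21.1 at 24 hours (ENSMUSG00000032440.13, chr9:116084293-116175360, minus strand). Time 0 and 12 hours overlapped (log2 fold change -0.04, SE 0.055, edgeR adjusted p = 0.722, and 0.01 without 12 hours replicate 3). At 24 hours the change against time 0 was -0.50 (SE 0.057, edgeR adjusted p = 3.32e-06), a 1.41-fold fall and so short of the call, and against 12 hours it was -0.44 (SE 0.060, edgeR adjusted p = 2.10e-05). With total counts as the scale these were -0.72 and -0.66, and both were called.

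Tgfbr3, the betaglycan gene, was the most abundant receptor transcript. Its levels were 139, 131 and 129.7 CPM at time 0, 125, 122 and 128 at 12 hours and 47.3, 48.3 and 52.8 at 24 hours (ENSMUSG00000029287.14, chr5:107106570-107289629, minus strand). The 12-hour libraries lay just below those of time 0, and the 24-hour libraries lay far below both. The log2 fold change at 12 hours was -0.09 (SE 0.036, edgeR adjusted p = 0.168), and at 24 hours it was -1.42 against time 0 (SE 0.051, edgeR adjusted p = 1.18e-10), 2.68-fold lower, and -1.31 against 12 hours (SE 0.046, edgeR adjusted p = 8.68e-11). A same-strand gene, Gm43422, shares 4.5% of the exonic bases of Tgfbr3.

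All 3 receptor genes were thus lower at 24 hours, to unequal extents. Tgfbr3 made up 76.6% ± 0.102 of the summed receptor level per length at time 0, 75.8% ± 1.06 at 12 hours and 61.9% ± 1.52 at 24 hours (SD, n = 3). The share of Tgfbr2 was 13.8% ± 0.203 at time 0 and 21.2% ± 0.735 at 24 hours, and that of Tgfbr1 was 9.65% ± 0.248 and 16.9% ± 0.870 (SD, n = 3). The ratio of Tgfbr3 to Tgfbr2 per length was 5.47 to 5.63 at time 0 and 2.79 to 3.13 at 24 hours, without overlap. The summed receptor level was 26.6 ± 0.946, 25.2 ± 0.449 and 12.2 ± 0.427 CPM per kilobase (SD, n = 3) at 0, 12 and 24 hours.

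**Figure D2:**
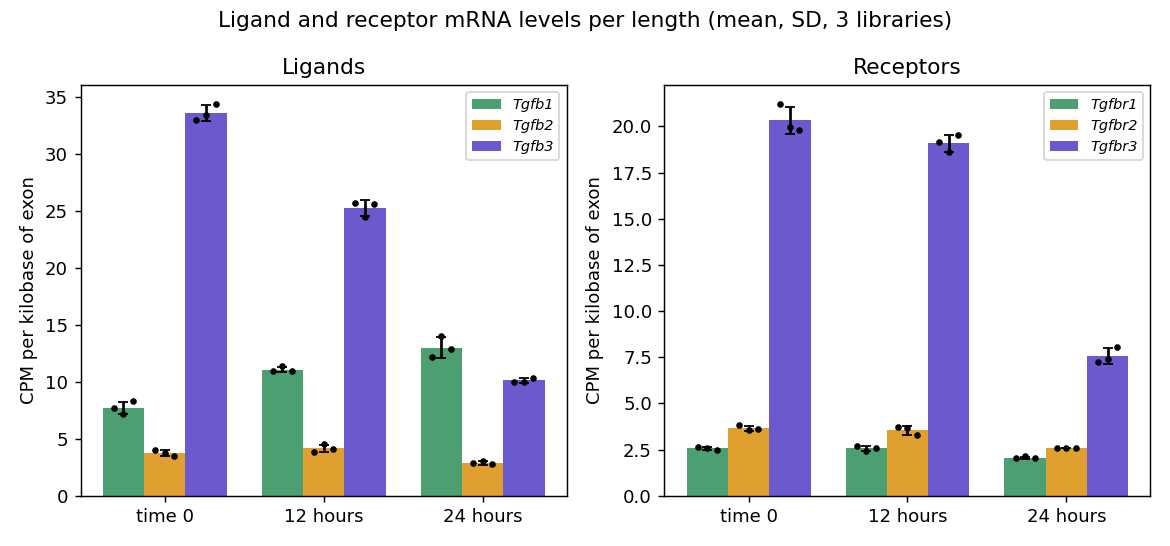
Level of each ligand and receptor gene in CPM per kilobase of exon by time, as bars of the mean and SD with a point per library. Smad3, Smad7 and Skil are not shown. Among the genes shown, Tgfb3 had the highest mean level at time 0 (33.6) and 12 hours (25.3), and Tgfb1 at 24 hours (13.0).

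Smad3 encodes the receptor-activated SMAD that binds DNA. Its levels were 128, 114 and 118 CPM at time 0, 143, 154 and 151 at 12 hours, and 112, 143 and 124 at 24 hours (ENSMUSG00000032402.12, chr9:63646767-63757994, minus strand). It was higher at 12 hours in all 3 libraries, and the 24-hour libraries overlapped time 0, with replicate 2 the highest of them. The log2 fold change was 0.32 at 12 hours (SE 0.043, edgeR adjusted p = 6.28e-05) and 0.08 at 24 hours (SE 0.074, edgeR adjusted p = 0.344). From 12 to 24 hours the change was -0.22 (SE 0.067, edgeR adjusted p = 0.0100), but it ran from -0.44 with total counts to -0.05 with a length and GC correction, where it did not pass the test. The 24-hour change was -0.02 without 24 hours replicate 2 and -0.14 with total counts as the scale, and with a length and GC correction it was 0.24 with an edgeR adjusted p of 0.00385, where the alternatives ran from 0.00385 to 0.431.

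Smad7 encodes the inhibitory SMAD. Its levels were 11.8, 11.1 and 11.9 CPM at time 0, 16.7, 13.8 and 17.2 at 12 hours, and 18.3, 24.0 and 19.6 at 24 hours (ENSMUSG00000025880.11, chr18:75367529-75395935, plus strand). The 3 times did not overlap, and each later time was higher. The log2 fold change was 0.46 at 12 hours (SE 0.085, edgeR adjusted p = 0.00137), 0.84 at 24 hours (SE 0.097, edgeR adjusted p = 4.01e-06), or 1.79-fold, and 0.40 from 12 to 24 hours (SE 0.10, edgeR adjusted p = 0.00355). With total counts as the scale the change from 12 to 24 hours was 0.18 and no longer passed the test. The ratio of Smad7 to Smad3 per length lay between 0.112 and 0.124 at time 0, between 0.1097 and 0.143 at 12 hours, and between 0.193 and 0.206 at 24 hours.

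Skil encodes the corepressor SnoN. Its levels were 56.7, 52.4 and 54.1 CPM at time 0, 74.4, 76.2 and 75.3 at 12 hours, and 64.6, 72.3 and 70.6 at 24 hours (ENSMUSG00000027660.16, chr3:31095058-31122577, plus strand). Both later times were above time 0 in all libraries, and the 12-hour libraries were the highest. The log2 fold change was 0.47 at 12 hours (SE 0.038, edgeR adjusted p = 1.42e-07) and 0.35 at 24 hours (SE 0.053, edgeR adjusted p = 4.39e-05), the latter 0.13 with total counts as the scale and still past the adjusted p. The change from 12 to 24 hours was -0.10 (SE 0.045, edgeR adjusted p = 0.0616), and it was -0.32 with total counts and -0.22 with the length and GC correction, both past the adjusted p.

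**Figure D3:**
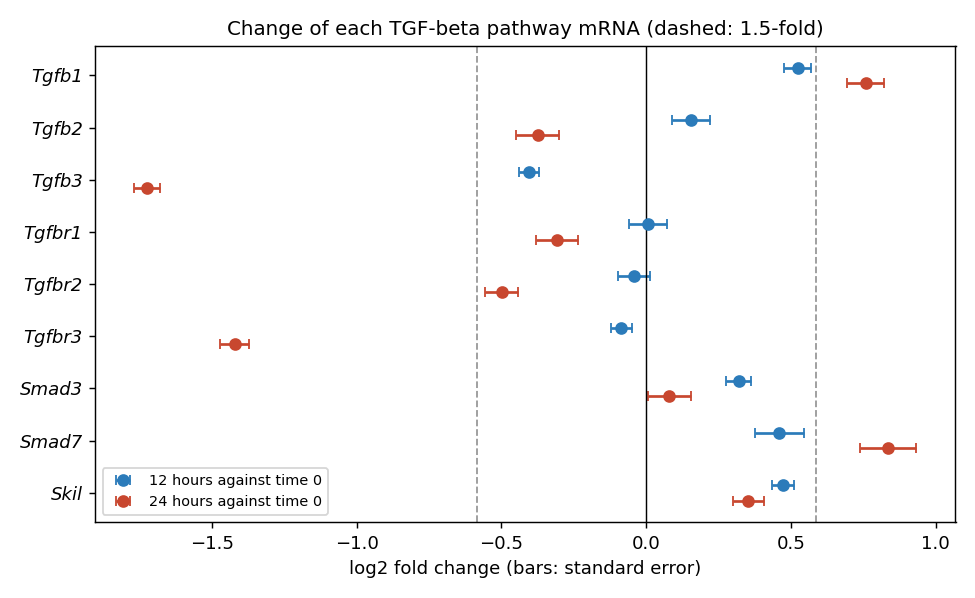
Log2 fold change of each member at 12 and 24 hours against time 0, with the standard error from edgeR and dashed lines at 1.5-fold. Points are not marked by call. No member was called at 12 hours, and 4 were called at 24 hours against time 0.

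Between 12 and 24 hours 2 of the 9 members were called, Tgfb3 and Tgfbr3, both lower, where 25.7% of all genes were called, 10.4% higher and 15.3% lower. The adjusted p alone was passed by 8 members, 2 higher (Tgfb1 and Smad7) and 6 lower, and Skil did not pass it. Of these, Tgfb1 and Smad7 did not pass with total counts as the scale, and Smad3 did not pass with the length and GC correction. Of all genes 71.3% passed it, 35.7% higher and 35.6% lower. None of the 9 members overlapped between these times, as was so for 73.9% of all genes. The comparisons with time 0 share the same 3 libraries, so their values are given side by side and their likeness was not tested.

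Per length the order of the members changed between the times. At time 0 Tgfb3 (33.6 CPM per kilobase) was first, followed by Smad3 (21.7) and Tgfbr3 (20.3), which overlapped, then Tgfb1 (7.73) and Skil (5.61). Tgfb2 and Tgfbr2 overlapped at 3.76 and 3.66, and Smad7 and Tgfbr1 overlapped at the bottom, both at 2.56. At 24 hours Smad3 (22.8) was first, then Tgfb1 (13.0), Tgfb3 (10.1), Tgfbr3 (7.56) and Skil (7.13), the last 2 overlapping. With the longest transcript as the length, which was applied to this order after seeing the data, Tgfb1 (25.5) and Smad3 (24.8) were the highest at 24 hours and overlapped, and Skil (10.3) and Tgfb3 (10.1) came next and overlapped. Smad7 (4.56) had moved above Tgfb2 (2.89), Tgfbr2 (2.58) and Tgfbr1 (2.06).

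For the 4 members called at 24 hours, the genes with the closest pattern over the 9 libraries were sought among 8350 genes, by the root mean square distance of log2 levels after centering. The closest to Tgfb1 were Cd47 (distance 0.060), Lpcat4 (0.080) and Snx10 (0.091). Tgfb3 was closest to Ablim1 (0.087), Baz2b (0.095) and Prr15l (0.096). Pias1 (0.050), Pak6 (0.056) and Gcc1 (0.061) were closest to Tgfbr3, and Tor3a (0.080), Cd47 (0.098) and F3 (0.10) to Smad7. Cd47 stood in the lists of both Tgfb1 and Smad7.

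Of 66 other genes of the pathway, listed by role, 59 were in the table. At 12 hours 4 of 49 tested were called, all higher (8.16%, against 1.60% of all genes). At 24 hours against time 0 the count was 21 of 50, 14 higher and 7 lower (42.0%, against 28.8% of all genes), and between 12 and 24 hours it was 15 of 50, 8 higher and 7 lower, a share near the 25.7% of all genes. With edgeR's test against a 1.5-fold threshold these counts were 1, 12 and 7, all among the genes first called, where 0.771%, 18.4% and 15.5% of all genes were called. Junb kept its call at 12 hours in that test and Itgb6, Rhob and Angptl4 lost theirs. Among 8 tested genes for latency and activation, Itgb6, a subunit of an integrin that releases latent TGF-β, was called at 12 hours (log2 fold change 0.77, SE 0.17, edgeR adjusted p = 0.00546) and at 24 hours (1.12, SE 0.18, edgeR adjusted p = 8.01e-05), with means of 1.40, 2.39 and 3.05 CPM in time order. Itgb8, named after its values were seen, was also called higher at 24 hours, at a mean of 0.588 CPM, and 1 gene of this list in place of 2 was then called without time 0 replicate 1 or 3 or without 24 hours replicate 2 or 3. Furin, the protease that cleaves the propeptide, was lower at 24 hours than at 12 (-0.41, SE 0.061, edgeR adjusted p = 4.53e-05), short of 1.5-fold, and was -0.63 and called with total counts as the scale and -0.18 with a length and GC correction.

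Among 6 other receptors and coreceptors tested, none was called at 12 hours, and Tgfbrap1, a receptor-associated protein, and Eng, the coreceptor endoglin, were called lower at 24 hours, where 16.8% of all genes were. Tgfbrap1 changed by -0.77 (SE 0.0997, edgeR adjusted p = 1.19e-05), from 16.9 to 9.89 CPM, a call lost in the test against a 1.5-fold threshold, as was that of Eng. Eng, at a mean of 1.25 CPM at time 0 and named after its values were seen, changed by -0.69 (SE 0.26, edgeR adjusted p = 0.0280), and 1 gene of this list in place of 2 was called without time 0 replicate 2 or 3 or without 24 hours replicate 2. Fkbp1a, whose product binds the type I receptor, was higher at 12 hours by 0.16 (SE 0.033, edgeR adjusted p = 0.00483).

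Among 18 other SMADs and SMAD regulators tested, none was called at 12 hours, and 3 were higher and 3 lower at 24 hours, where 28.8% of all genes were called. The median log2 fold change of this list at 24 hours was 0.29, against -0.02 for all genes. Ski, the relative of Skil and a corepressor of SMADs, was the most lowered, at 79.0, 73.8 and 75.5 CPM at time 0, 69.9, 70.9 and 74.9 at 12 hours and 25.2, 28.0 and 24.6 at 24 hours, a change of -1.55 (SE 0.057, edgeR adjusted p = 1.47e-10). Skil and Ski thus moved in opposite directions at 24 hours. The coactivators Ep300 (-1.23, SE 0.048, edgeR adjusted p = 2.21e-10) and Crebbp (-1.02, SE 0.051, edgeR adjusted p = 1.50e-09) were lower, and the corepressor Tgif1 (0.68, SE 0.042, edgeR adjusted p = 1e-08) was higher, as were Tgif2 and Smurf2, and these 3 were no longer called with total counts as the scale, nor Tgif2 and Smurf2 in the test against a 1.5-fold threshold. Smad2 and Smad4, whose products act with SMAD3 and which were named after their values were seen, rose at 24 hours by 0.36 (SE 0.055, edgeR adjusted p = 5.61e-05) and 0.53 (SE 0.041, edgeR adjusted p = 7.50e-08), both short of 1.5-fold and smaller with total counts as the scale (0.14 and 0.31).

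Of 14 tested genes known to be induced by TGF-β, 3 were called higher at 12 hours, where 1.60% of all genes were called, and 7 at 24 hours, with 1 lower, where 12.0% of all genes were called higher and 16.8% lower at 24 hours. The median log2 fold change at 24 hours was 0.58, against -0.02 for all genes. With total counts as the scale, 5 genes of this list in place of 8 were called at 24 hours. In the test against a 1.5-fold threshold 5 were also called, with Klf10, Bhlhe40 and Fn1 lost, named after their values were seen. Cdkn1a, which encodes the cell cycle inhibitor p21, changed by 1.62 at 24 hours (SE 0.096, edgeR adjusted p = 6.61e-09) and by -0.04 at 12 hours (SE 0.055, edgeR adjusted p = 0.717). Junb, an AP-1 subunit gene, was called at both 12 hours (0.74, SE 0.038, edgeR adjusted p = 4.57e-10) and 24 hours (1.21, SE 0.087, edgeR adjusted p = 4.07e-08).

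The other 2 targets called at 12 hours, neither of them in the test against a 1.5-fold threshold, were not called higher at 24 hours. Rhob, a small GTPase gene, was at a mean of 128 CPM at time 0, 203 at 12 hours and 57.3 at 24 hours, changing by 0.67 at 12 hours (SE 0.037, edgeR adjusted p = 1.15e-09) and by -1.15 at 24 hours (SE 0.050, edgeR adjusted p = 5.41e-10). Angptl4, the gene of a secreted lipase inhibitor, was at 59.7, 93.4 and 60.6 CPM, changing by 0.65 at 12 hours (SE 0.040, edgeR adjusted p = 5.79e-09) and by 0.03 at 24 hours (SE 0.055, edgeR adjusted p = 0.672). Of 4 genes known to be repressed by TGF-β, 3 were called at 24 hours, where 28.8% of all genes were. Id2 was called lower at 24 hours (-0.84, SE 0.071, edgeR adjusted p = 1.91e-07), and Id1 (0.77, SE 0.081, edgeR adjusted p = 1.57e-06) and Id3, at a mean of 0.556 CPM, were called higher, the former not with total counts as the scale and the latter not in the test against a 1.5-fold threshold.

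**Figure D4:**
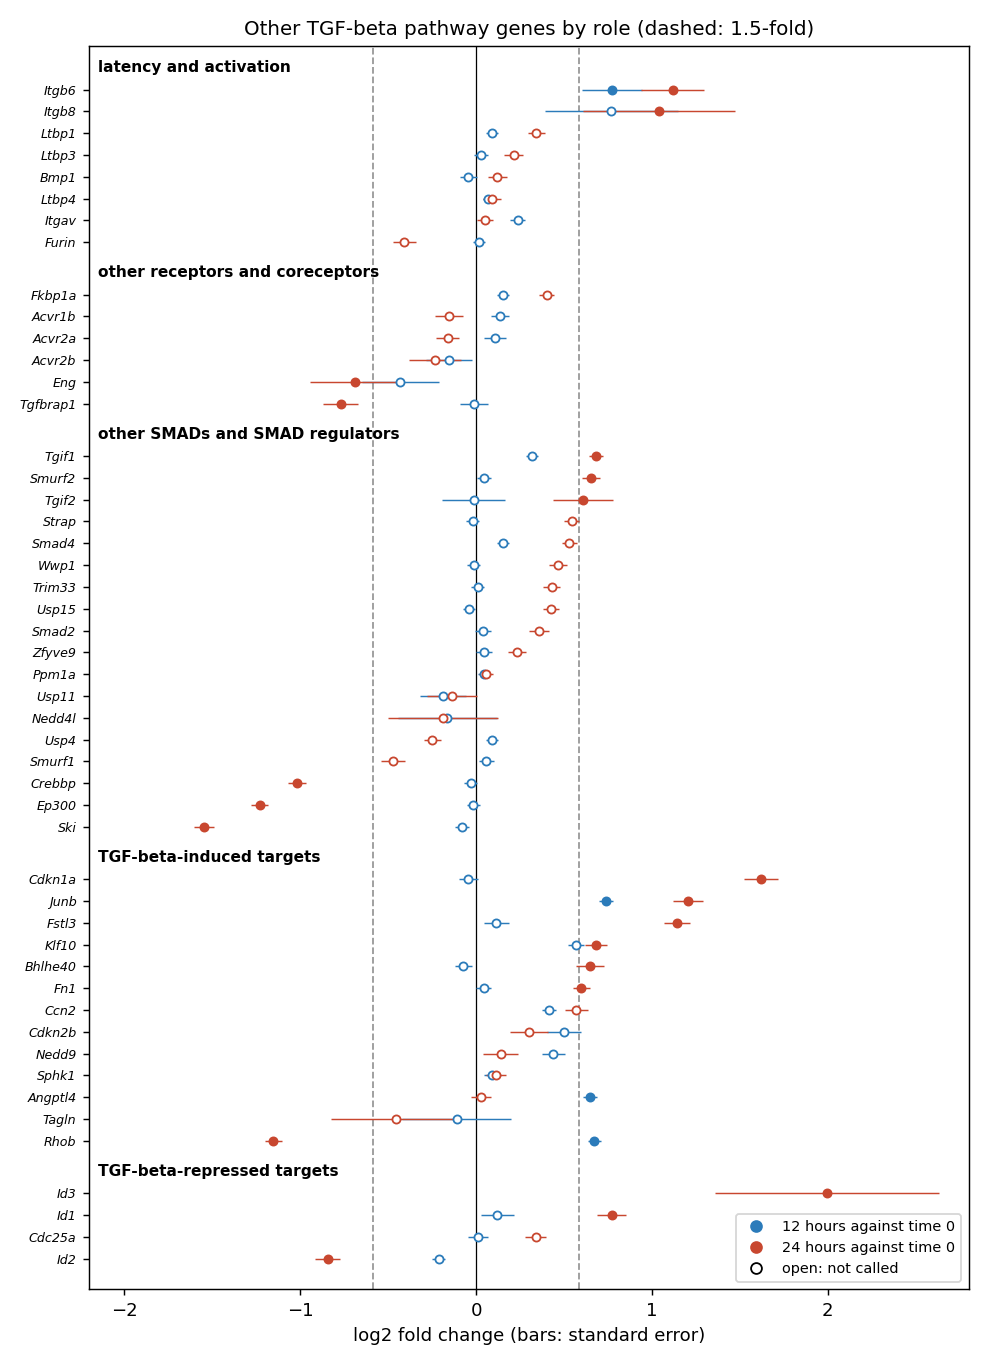
Log2 fold changes of the other pathway genes reported, grouped by role, at 12 and 24 hours against time 0, with the standard error as bars, dashed lines at 1.5-fold and open points for genes not called. Ski was the most lowered gene shown at 24 hours (-1.55), and Rhob the most lowered of the TGF-β-induced targets (-1.15).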

How the data were processed

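RNA-Seq of 9 MyC-CaP libraries was used, 3 each at 0, 12 and 24 hours. The authors trimmed reads with Cutadapt, aligned them to GRCm38.p6 with STAR, using a GENCODE annotation, and used featureCounts for counting. The values they deposited are raw counts per gene. Each pair of times was fitted on its own 6 libraries in edgeR 4.0.16 (R 4.3.3) after filterByExpr, with TMM factors and the quasi-likelihood test, and p-values were adjusted over all genes tested. A gene was called at an adjusted p of 0.05 or less and 1.5-fold, the thresholds of the study. The fits were first tested on simulated data in which a small set of genes changed, each by more than 1.5-fold. At 24 hours most genes passed the adjusted p, so that simulation cannot speak for the scaling there. Nor can it speak for calls near 1.5-fold.

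CPM values are TMM-scaled over the 9 libraries. Positions and exonic lengths come from GENCODE M21, of the same assembly, in which 15374 of 15384 genes matched. A floor of 3 counts corresponds to 0.0566 to 0.0716 CPM, and every member was far above it. Of each pathway list and comparison, up to 3 called genes with the largest change were named, given a mean of at least 50 scaled counts and no overlap between the times, or the gene of lowest p where none was called. Likeness to a member was sought among genes with a mean of at least 10 CPM. Some listed genes entered the counts of their lists but are not reported here by name or value. The members and lists were chosen with earlier results of these data known. Alternatives were other scalings, filters and tests (limma 3.58.1, DESeq2 1.42.0), a length and GC correction, a replicate block and leaving out each library.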

Additional observations from a re-analysis of the deposited data

Results flagged for a closer look

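By a direct test of 24 against 12 hours with edgeR, the changes of 2 of the 9 members differed between the 2 treatment times. The call asked for an adjusted p of 0.05 or less and 1.5-fold. Of all genes 25.7% were called in the same test, 15.3% lower, so the count of members was near that share. For Tgfb3 the 24-hour change exceeded the 12-hour change by a log2 difference of -1.30, and for Tgfbr3 by -1.31. All 3 libraries of 24 hours lay below all 3 of 12 hours for both genes. With 3 libraries a group, single libraries were not screened as outliers.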

How the results depend on the processing

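The counts of members called were 0, 4 and 2 (12 against 0, 24 against 0 and 24 against 12 hours), and each was the same with every library left out in turn, with the same members. With the adjusted p alone they were 5, 8 and 8, and total counts as the scale gave 5 at 24 hours against time 0 and 4 between 12 and 24 hours. Genes called over the whole table numbered 1178, 8119 and 8124 with the adjusted p alone, and 88, 2101 and 1768 with a test against a 1.5-fold threshold. Of 513 fold changes of members under alternatives, 484 kept direction and side of the threshold, 1 lost its call, 19 became called and 9 changed sign. Sign changes at 12 hours against time 0 were Tgfbr1 with upper-quartile factors (-0.0082), total counts (-0.0141), the length and GC correction (-0.0105) and that correction with a replicate block (-0.0112), or with a library left out (-0.0314 to 0.0426), Tgfbr2 (-0.0769 to 0.0097 with a library left out), Furin (-0.0011 with total counts, -0.0058 to 0.0404 with a library left out), Tgfbrap1 (-0.0954 to 0.066), Ep300 (-0.0436 to 0.0069) and Gcc1 (-0.0691 to 0.0078), each with a library left out. At 24 hours against time 0, Smad3 was -0.141 with total counts and -0.017 to 0.1576 with a library left out, and Angptl4 was -0.1945 and -0.0043 to 0.0863. Lpcat4 from 12 to 24 hours was -0.059 with total counts. The cause was not tested for any of these.

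Shares of Tgfb1, Tgfb2 and Tgfb3 in the ligand level without division by length were 22.32%, 12.5% and 65.18% at time 0, 33.75%, 14.58% and 51.66% at 12 hours and 56.24%, 14.33% and 29.43% at 24 hours. With the longest transcript as the length, Tgfb1 was 28.55%, 41.99% and 65.52%, Tgfb3 was 63.41%, 48.88% and 26.08%, and Tgfb2 was 9.126% at 12 and 8.399% at 24 hours. Same-numbered replicates did not deviate together (correlations -0.106 to 0.057), so they share only a number. The replicate block left 0, 4 and 2 members called, the same ones, and 172, 3247 and 2926 genes over the table. With a library left out, the edgeR adjusted p lay between 0.048 and 0.595 for Tgfb2 at 12 hours, between 0.037 and 0.805 for Smad3 at 24 hours against time 0, and between 0.0169 and 0.223 for Skil from 12 to 24 hours. The calls of Itgb8, Eng and Id3 rest on low counts.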
